A study of Mus musculus with 14 samples.

Results

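The lysosome and autophagy genes described here are 39 named genes, taken from the 55415 rows of each of 2 count tables by gene symbol. They comprise 9 cathepsins, 10 other hydrolases or their activators, 8 lysosomal membrane or transport proteins, 4 subunits of the proton pump, 5 autophagy genes and 3 transcription factors of the MiT/TFE family. All 39 were present in both tables, and 37 of them were expressed highly enough to be tested in each. The other two, Ctsk and Ctss, never reached 1 CPM in any of the 14 libraries. CPM here is a gene's counts on the usual CPM scale, with library sizes adjusted by the trimmed mean of M values (TMM).

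The cells were TR.1, a mouse lung adenocarcinoma line that carries a Trim24-Ret fusion, and RNA was measured by stranded poly(A) RNA sequencing. In the acute table, cultures received DMSO, the vehicle, or 100 nM selpercatinib (LOXO-292), a selective RET kinase inhibitor, and 1 library of each arm was made on days 1, 2, 3 and 5. In the resistance table, 2 libraries of parental cells in DMSO stood beside 2 of cells grown resistant to 500 nM selpercatinib and 2 of cells grown resistant to pralsetinib (BLU-667), another selective RET inhibitor, at 200 nM and at 400 nM. The protocol gives the final resistant concentrations as 400 to 500 nM, which the 200 nM label does not match. All groups derive from 1 line, and the labels do not state that a group's libraries are separate cultures. In the resistance table the p-values below measure the spread between libraries of a group, which may be technical. In the acute table no arm was replicated within a day. The p-values of its drug comparison measure how far the difference between arms varied over the days, and those of its time trends measure departures from a straight line. The source of that variation was not tested.

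Lysosomes break down proteins, glycans, lipids and glycogen with acid hydrolases, among them the cathepsin proteases, in a lumen acidified by a vacuolar ATPase. Autophagy delivers cytoplasmic cargo to them in membrane vesicles coated with proteins of the LC3 and GABARAP family. Tfeb, Tfe3 and Mitf encode related transcription factors that, when nutrient signalling through mTORC1 falls, move to the nucleus and bind E-box elements with the core CACGTG near many lysosomal genes.

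The promoters shown carry the 8-base E-box TCACGTGA, and are the 4 of highest rank among acute changes whose window (250 bases before to 50 after the RefSeq start site, build GRCm38.p6) holds it. Both CACGTG and TCACGTGA read the same on either strand, and every TCACGTGA contains a CACGTG. The element is in capitals, and each sequence is given 5′ to 3′ on the gene's strand. Ctsd, an aspartic protease, lies at chr7:142387778-142388077 on the minus strand. Ctsa, a carboxypeptidase that also protects other hydrolases, lies at chr2:164833523-164833822 on the plus strand and holds 2 copies. Atp6v0d1 and Atp6v1a, which encode proton pump subunits, lie at chr8:105566015-105566314 and chr16:44139210-44139509, both on the minus strand.
Ctsd: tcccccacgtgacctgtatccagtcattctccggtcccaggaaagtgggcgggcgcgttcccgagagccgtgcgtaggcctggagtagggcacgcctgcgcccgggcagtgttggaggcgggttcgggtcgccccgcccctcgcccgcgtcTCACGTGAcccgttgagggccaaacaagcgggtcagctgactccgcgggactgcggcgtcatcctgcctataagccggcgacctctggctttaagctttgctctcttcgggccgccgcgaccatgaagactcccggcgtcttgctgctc
Ctsa: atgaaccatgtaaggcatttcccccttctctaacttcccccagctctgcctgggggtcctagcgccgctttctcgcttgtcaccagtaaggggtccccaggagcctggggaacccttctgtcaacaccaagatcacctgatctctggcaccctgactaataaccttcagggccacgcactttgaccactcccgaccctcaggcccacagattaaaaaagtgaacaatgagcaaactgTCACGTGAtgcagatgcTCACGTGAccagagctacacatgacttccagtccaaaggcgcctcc
Atp6v0d1: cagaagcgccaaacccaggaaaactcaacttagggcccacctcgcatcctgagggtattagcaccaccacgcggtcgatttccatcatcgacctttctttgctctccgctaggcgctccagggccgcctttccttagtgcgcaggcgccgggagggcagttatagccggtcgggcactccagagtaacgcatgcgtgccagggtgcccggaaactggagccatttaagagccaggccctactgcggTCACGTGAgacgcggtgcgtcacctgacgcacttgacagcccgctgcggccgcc
Atp6v1a: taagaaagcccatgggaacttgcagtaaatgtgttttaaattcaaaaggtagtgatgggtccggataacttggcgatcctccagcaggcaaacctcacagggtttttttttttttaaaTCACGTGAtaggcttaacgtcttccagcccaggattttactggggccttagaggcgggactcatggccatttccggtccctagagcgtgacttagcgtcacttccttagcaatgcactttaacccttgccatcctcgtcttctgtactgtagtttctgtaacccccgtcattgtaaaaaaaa
In Atp6v0d1 the CACGTG core begins 3 bases before the start site, in Ctsd 98 and in Atp6v1a 131 bases before it, and the copies of Ctsa begin 12 bases before and 6 bases after it. Promoter entries existed for 34 of the 39 genes, with 41 windows in all because some genes have several starts. CACGTG occurred in 12 of the 41 windows (29.3%), against 7.15% of all 32851 promoter windows of the same length. TCACGTGA occurred in 6 of them (14.6%), against 0.974% of all windows. The genes with the longer element were these 4, Gla and Mcoln1. In the acute comparison given below, the 4 and Mcoln1 were called higher, while Gla, which holds 2 copies, was not called. The 4 were picked by their rank in that same comparison. It called 21 of the 37 tested genes of the set higher, and 26.6% of all genes. Whether calls went with either element was not tested. Of the genes with CACGTG only, Ctsf and Lamp1 were called higher, Ctsl was called lower, and Gaa, Glb1 and Naglu were not called. Neither element was found in the windows of the 5 autophagy genes or of the 3 MiT/TFE factors. Lamp1 held 4 copies of CACGTG in a run from 61 to 15 bases before its start site. A match is a run of letters in a window and does not show that a factor binds there.

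Libraries held 68647871 to 89827989 counts in the acute table and 60723746 to 81900630 in the resistance table, so that 3 counts correspond to 0.0334 to 0.0494 CPM. Epithelial transcripts, 11 markers summed, stood at 7413 to 9336 CPM in DMSO, 12894 to 13849 CPM in selpercatinib and 9560 to 9645 CPM in parental libraries. They were at 1178 to 1264 CPM in selpercatinib-resistant and 646 to 1323 CPM in pralsetinib-resistant libraries. Of 10 epithelial markers tested, 9 were lower in each resistant group (edgeR, adjusted p below 0.05), against 34.4% and 34.6% of all genes, but not evenly. Esrp1 and Cldn7, at most 0.03 and 0.56 CPM in resistant libraries, passed the filter only through the parental ones, so their calls are no test. Epcam was at most 1.38 CPM in resistant libraries, against at least 239 CPM in parental ones. Cdh1 remained at 100 to 263 CPM, against 811 to 814 CPM. Nkx2-1 was at 1.84 to 1.86 CPM in parental, 6.61 to 8.28 CPM in selpercatinib-resistant and 0.568 to 2.44 CPM in pralsetinib-resistant libraries. The 10 fibroblast markers summed to 6.74 to 9.13 CPM in DMSO, 12.4 to 36.7 CPM in selpercatinib and 14.1 to 15.1 CPM in parental libraries. They summed to 1898 to 2098 CPM in selpercatinib-resistant and 1210 to 1384 CPM in pralsetinib-resistant libraries, where Col1a1 alone was at 1252 to 1415 and 315 to 717 CPM. Of the 10, 7 were below 1 CPM in parental libraries and 2, Thy1 and Lum, in each resistant group. Pdgfra was at 2.44 to 2.67 CPM in parental, 3.64 to 4.24 CPM in selpercatinib-resistant and 1.42 to 2.31 CPM in pralsetinib-resistant libraries. The part of these markers in the resistance results was not tested. The 12 macrophage and leukocyte markers, whose cells are rich in lysosomes, summed to 81.7 to 166 CPM in DMSO and 14.9 to 32.8 CPM in selpercatinib, and to 276 to 280 CPM in parental, 97.1 to 99.3 CPM in selpercatinib-resistant and 60.7 to 96.5 CPM in pralsetinib-resistant libraries. Adgre1 and C1qb were at 0 counts in all 14 libraries, Spi1 and Tyrobp did not pass 0.0658 CPM in any, and most of the DMSO and parental sum was Mrc1 (70.6 to 258 CPM). The list did not move as one: Csf1r was at 0.62 to 0.853 CPM in DMSO and 7.6 to 12.5 CPM in selpercatinib, and Cd14 at 19.8 to 20.2 CPM in parental and 50.3 to 82.6 CPM in resistant libraries. The part of these genes in the results was not tested. In bulk RNA, fewer cells of a type and less RNA per cell cannot be told apart.

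Per kilobase of annotated exon, the most abundant of the 39 transcripts in DMSO were Sqstm1, which encodes the cargo receptor p62, with a mean of 182 CPM per kilobase over the 4 libraries, then Psap with 151, Lamp1 with 150, Ctsz with 138 and Ctsl with 136. The last 4 lay closer together than Psap alone varied over the days (311 to 508 CPM). The order also depends on the length used. With the shortest coding transcript of the basic annotation, Sqstm1 remained first, with Ctsl and then Cd63 next. At the other end were Lipa with 2.03 CPM per kilobase, Tfeb with 1.14, Ctsf with 1.05, Mitf with 0.353, Ctsk with 0.144 and Ctss with 0.00238. Of the MiT/TFE factors, Tfe3 was highest with 8.4 CPM per kilobase, above Tfeb and Mitf.

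Acute RET inhibition was followed by higher transcript levels of many lysosomal genes, across enzymes, membrane proteins and the proton pump. With the day as a block, 21 of the 37 tested genes were higher in selpercatinib than in DMSO at an adjusted p below 0.05 (edgeR quasi-likelihood test, Benjamini-Hochberg over all genes), 1 was lower (Ctsl) and 15 were not called. Over all 13209 genes tested, 26.6% were called higher and 26.9% lower. The median log2 difference was 0.39 over the 37 genes and -0.002 over all genes. In 24 genes the selpercatinib library was above its same-day DMSO library on all 4 days, and in 1 it was below on all 4, against 32.4% and 32.6% of all genes. In 16 genes every selpercatinib library stood above every DMSO library (20.4% of all genes) and in 1, Ctsl, every one stood below (19% of all genes). Without the day as a block the counts were 16 higher and 1 lower; Ctsf, Hexa, Gabarapl1, Ulk1 and Tfeb then lost their calls.

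**Figure D1:**
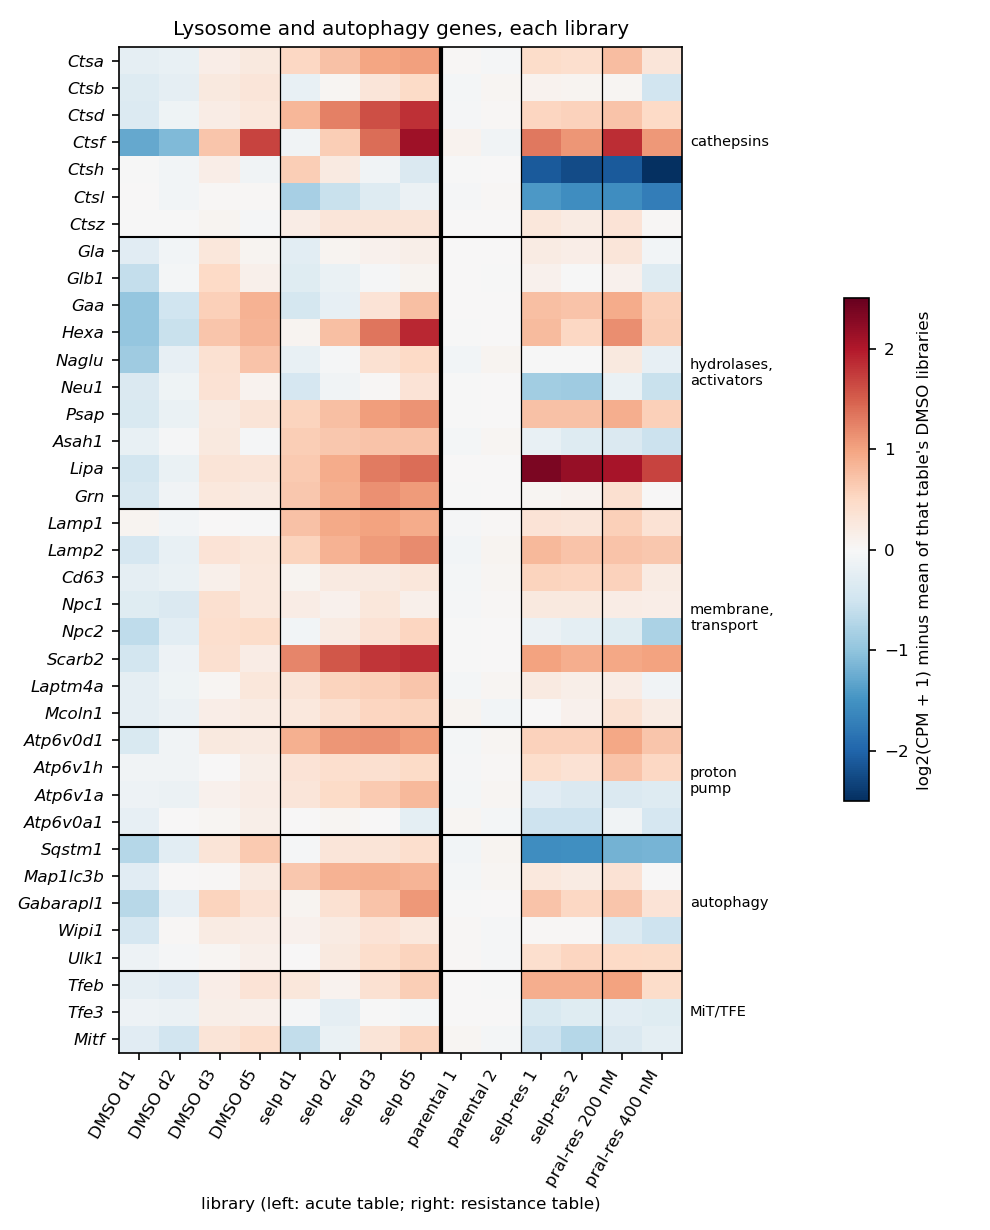
Each row is a tested gene, grouped by role, and each column a library; colour gives log2(CPM + 1) minus the mean of the DMSO libraries of the same table, on a scale that saturates at 2.5 in either direction. Most rows of the acute selpercatinib columns are red, Ctsl is blue there, and in the resistant columns Lipa is the darkest red row while Ctsh, Ctsl and Sqstm1 are blue.

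Among the cathepsins, 4 of 7 tested rose and 1 fell. Ctsd read 157, 183, 226 and 237 CPM in DMSO on days 1, 2, 3 and 5, and 352, 477, 610 and 708 CPM in selpercatinib. Every selpercatinib library was above every DMSO library, and the log2 difference was 1.39 ± 0.09 (SE, n = 4 libraries per arm, 1 on each day, edgeR adjusted p = 8.11e-05). The gene model Gm49369, whose exons share 34.4% of the exon bases of Ctsd, was assigned 0 counts in every library. How reads in shared bases were counted is not given, so this does not show whether the overlap affects Ctsd. Ctsa read 90.4, 93.3, 118 and 125 CPM in DMSO and 152, 175, 209 and 216 CPM in selpercatinib, again without overlap (log2 difference 0.82 ± 0.07, edgeR adjusted p = 0.000159).

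Ctsf, a cysteine protease, was the least abundant of the tested cathepsins in DMSO and changed most over the days. It read 0.813, 1.07, 6.16 and 13.2 CPM in DMSO and 3.18, 5.78, 10.7 and 18.3 CPM in selpercatinib. The drug library was higher on each day, but the log2 ratio was 1.97 and 2.44 on days 1 and 2 against 0.79 and 0.47 on days 3 and 5, and the arms overlapped when days were pooled. Its log2 difference of 1.35 ± 0.34 passed with the day as a block (edgeR adjusted p = 0.0147) and not without it (0.486). Ctsz, a carboxypeptidase, moved little, from 194 to 207 CPM in DMSO to 226 to 249 CPM in selpercatinib, with no overlap (log2 difference 0.28 ± 0.07, edgeR adjusted p = 0.011, but 0.0774 without day 2).

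Ctsl, a cysteine endopeptidase and one of the most abundant cathepsin transcripts of these cells, went the other way. DMSO libraries held 888, 843, 899 and 895 CPM over the 4 days, and selpercatinib libraries 494, 601, 701 and 800 CPM. The arms did not overlap, and the difference shrank day by day from a log2 ratio of -0.85 to -0.16. Averaged over days the log2 difference was -0.46 ± 0.12 (edgeR adjusted p = 0.0178); the call was lost without day 1 or without day 2 (highest adjusted p 0.0814). An antisense gene model that shares 26.8% of the exon bases of Ctsl, and a pseudogene within its exons, were both assigned 0 counts in every library. For the same reason, this does not show whether these overlaps affect Ctsl.

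Ctsb and Ctsh were not called in the acute comparison. Ctsb, a cysteine protease with carboxydipeptidase activity, ran from 204 to 318 CPM in DMSO and from 225 to 357 CPM in selpercatinib (log2 difference 0.16 ± 0.07, edgeR adjusted p = 0.0981). Ctsh, an aminopeptidase, started higher in the drug (81.1 against 52.2 CPM on day 1) and ended lower (40.6 against 49.3 CPM on day 5). Ctsk, the collagenolytic cathepsin of osteoclasts, lay between 0.0389 and 0.345 CPM over the acute libraries, and Ctss, a cathepsin of antigen-presenting cells, between 0 and 0.0129 CPM, below the level of 3 counts.

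These opposite movements changed the make-up of the cathepsin transcripts. Per kilobase of exon, Ctsl made up 29.6% to 33.8% of the summed 9 cathepsins in DMSO and 16.2% to 17.3% in selpercatinib. Ctsd made up 16.5% to 21.6% in DMSO and 31.8% to 42.2% in selpercatinib. Ctsl was the larger of the pair in every DMSO library and Ctsd in every selpercatinib library on this scale. The level of the Ctsl share depends on which transcript length is used, since its annotated exons span 6489 bases and its shortest basic coding transcript 1971. With the shortest transcripts Ctsl held 52.5% to 57.7% in DMSO and 33.4% to 35.6% in selpercatinib, and remained above Ctsd (24.4% to 32.3%) in the drug. With either length the ranges of the 2 arms did not overlap.

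**Figure D2:**
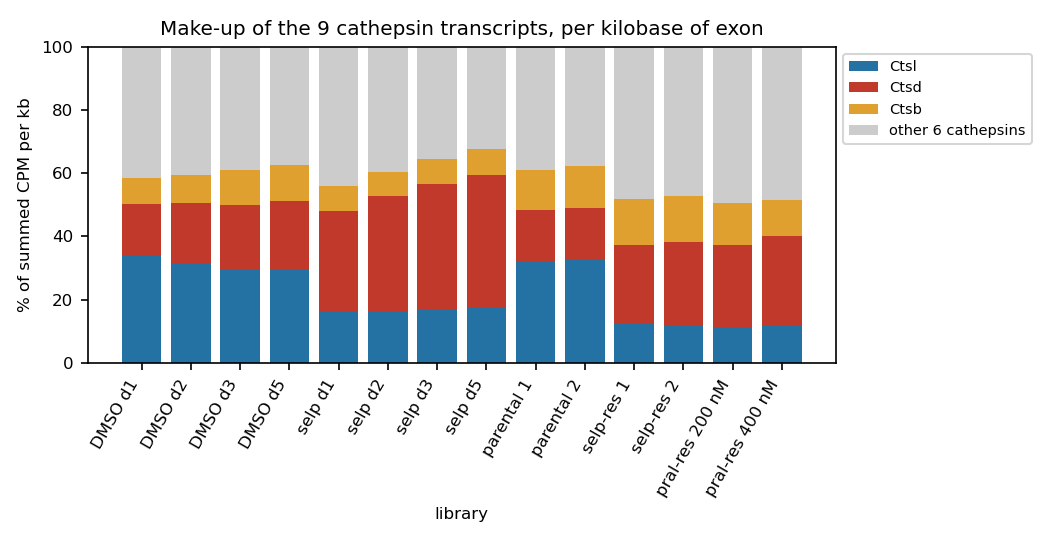
Stacked bars give, for each library, the percentage of summed CPM per kilobase of exon contributed by Ctsl, Ctsd, Ctsb and the remaining cathepsins. The Ctsl part falls from 29.6% or more in DMSO to 17.3% or less in acute selpercatinib, and to 12.6% or less in the resistant libraries, while the Ctsd part is larger.

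The other hydrolases and their activators divided evenly, with 5 of 10 higher and 5 not called. Those that rose were Lipa, Hexa, Grn, Psap and Asah1. Lipa, the lysosomal acid lipase, read 9.44, 11.9, 16.9 and 16.8 CPM in DMSO and 21.7, 26.3, 34.3 and 37 CPM in selpercatinib, and its log2 ratio stayed between 1.03 and 1.2 on all days (log2 difference 1.13 ± 0.08, edgeR adjusted p = 0.000128). Hexa, the alpha subunit of beta-hexosaminidase, read 18.5, 25.1, 60.6 and 67.7 CPM in DMSO and 39, 63.5, 96.3 and 140 CPM in selpercatinib. Each day's drug library was higher, yet the arms overlapped across days because both climbed (log2 difference 1.03 ± 0.11, edgeR adjusted p = 0.000542, but 0.157 without the day as a block).

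Psap, the precursor of the saposins that activate sphingolipid hydrolases, rose from 311, 362, 474 and 508 CPM to 594, 682, 835 and 884 CPM (log2 difference 0.87 ± 0.08). Grn, which encodes progranulin, a glycoprotein needed for normal lysosomal function, rose from 102 to 163 CPM in DMSO to 217 to 302 CPM in the drug (0.95 ± 0.07). Asah1, the acid ceramidase, rose from 204 to 272 CPM to 353 to 380 CPM (0.68 ± 0.08). None of these 3 overlapped between arms, and their edgeR adjusted p-values were 0.00022, 0.000134 and 0.00069.

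The 5 hydrolases that were not called degrade glycans or glycogen. Gaa, the glycogen-degrading acid alpha-glucosidase, was higher in selpercatinib on days 1 and 2 (87.9 against 60.5 and 104 against 84.7 CPM) and lower on days 3 and 5 (152 against 180 and 203 against 220 CPM). Naglu, which acts on heparan sulfate, went from a same-day log2 ratio of 0.75 at the start to -0.22 at the end. Gla, Glb1 and Neu1, which encode an alpha-galactosidase, a beta-galactosidase and a sialidase, had log2 differences of 0.02 ± 0.10, -0.11 ± 0.13 and -0.04 ± 0.10. The adjusted p-values of these 5 lay between 0.39 and 0.853 (edgeR).

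Of the membrane and transport proteins, 5 of 8 rose and 3 were not called. Scarb2, which encodes LIMP-2, the receptor that carries glucocerebrosidase to the lysosome, had the largest acute log2 difference of the 37 genes. It read 44.5, 56.1, 80.7 and 69.6 CPM in DMSO and 144, 182, 213 and 223 CPM in selpercatinib. Its lowest drug value exceeded the highest DMSO value, and the log2 difference was 1.62 ± 0.08 (edgeR adjusted p = 3.93e-05). Lamp1 and Lamp2 encode the heavily glycosylated proteins that line the lysosomal membrane. Lamp1 read 418, 382, 404 and 397 CPM in DMSO, with no movement over days, and 667, 770, 805 and 767 CPM in selpercatinib (log2 difference 0.91 ± 0.09, edgeR adjusted p = 0.000347). Lamp2 read 123 to 209 CPM in DMSO and 243 to 376 CPM in selpercatinib (0.92 ± 0.08, edgeR adjusted p = 0.000199).

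Laptm4a, a small lysosomal transmembrane protein, and Mcoln1, the TRPML1 calcium channel, rose less. Their log2 differences were 0.54 ± 0.07 and 0.45 ± 0.08 (edgeR adjusted p = 0.00114 and 0.00311), and the arms of neither overlapped. Cd63, a tetraspanin of late endosomes, was higher in the drug in each day pair but not called (0.20 ± 0.08, edgeR adjusted p = 0.0837). Npc1 and Npc2, which together export cholesterol from the lysosome, had log2 ratios of 0.47 to 0.55 on days 1 and 2 and between -0.14 and 0.07 on days 3 and 5, and were not called.

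Among the proton pump subunits, 3 of 4 rose. Atp6v0d1, of the membrane sector, read 21.4, 26.4, 33.5 and 33.2 CPM in DMSO and 52.7, 62, 62.6 and 59 CPM in selpercatinib (log2 difference 1.07 ± 0.11, edgeR adjusted p = 0.000346). Atp6v1a, the catalytic subunit, rose from 102 to 128 CPM to 139 to 199 CPM (0.56 ± 0.07, edgeR adjusted p = 0.000837). Atp6v1h, a regulatory subunit, rose from 32.6 to 38.9 CPM to 44.5 to 48.8 CPM (0.42 ± 0.07, edgeR adjusted p = 0.00382). Arms did not overlap for any of the 3. Atp6v0a1, a membrane-sector subunit with tissue-selective isoforms, was not called, with 99 to 127 CPM in DMSO and 96.9 to 118 CPM in the drug (-0.04 ± 0.11).

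Of the autophagy genes, 3 of 5 rose. Map1lc3b, which encodes LC3B, read 79.1, 97.4, 99 and 113 CPM in DMSO and 154, 178, 179 and 175 CPM in selpercatinib, without overlap (log2 difference 0.83 ± 0.08, edgeR adjusted p = 0.000275). Gabarapl1, of the same protein family, read 36.9, 52.4, 89.3 and 77.6 CPM in DMSO and 63.5, 79.7, 99.9 and 129 CPM in the drug. Each day's drug library was higher but the arms overlapped (0.57 ± 0.11, edgeR adjusted p = 0.00597, but 0.195 without the day as a block), and 28.3% of its exon bases are shared with an antisense transcript, 1700101I11Rik. Ulk1, the kinase that starts autophagy, rose from 76 to 90.8 CPM to 84.4 to 123 CPM (0.32 ± 0.08, edgeR adjusted p = 0.0121); the call was lost without day 2, 3 or 5 and without the block, with a highest adjusted p of 0.0653.

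Sqstm1 crossed over during the course. It read 351, 475, 714 and 906 CPM in DMSO and 564, 703, 720 and 767 CPM in selpercatinib, so the drug library was higher on days 1 and 2, level on day 3 and lower on day 5. Averaged over days it was not called (0.26 ± 0.17, edgeR adjusted p = 0.23). Wipi1, which binds the phosphoinositide of the forming autophagosome, was higher in each pair by log2 ratios of 0.54 falling to 0.06 and was not called (0.23 ± 0.09, edgeR adjusted p = 0.0819).

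The MiT/TFE factors moved little. Tfeb read 5.31, 5.03, 7.2 and 8.26 CPM in DMSO and 7.95, 6.78, 8.52 and 10.3 CPM in selpercatinib, higher on each day with overlapping arms (log2 difference 0.39 ± 0.12, edgeR adjusted p = 0.0308). That call was lost without day 1, 2 or 5 and without the block (highest adjusted p 0.18). Tfe3 (66.2 to 86.2 CPM over all 8 libraries) and Mitf (0.999 to 3.52 CPM) had log2 differences of -0.08 ± 0.08 and 0.03 ± 0.21. Transcript levels carry no information on where in the cell these factors were.

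**Figure D3:**
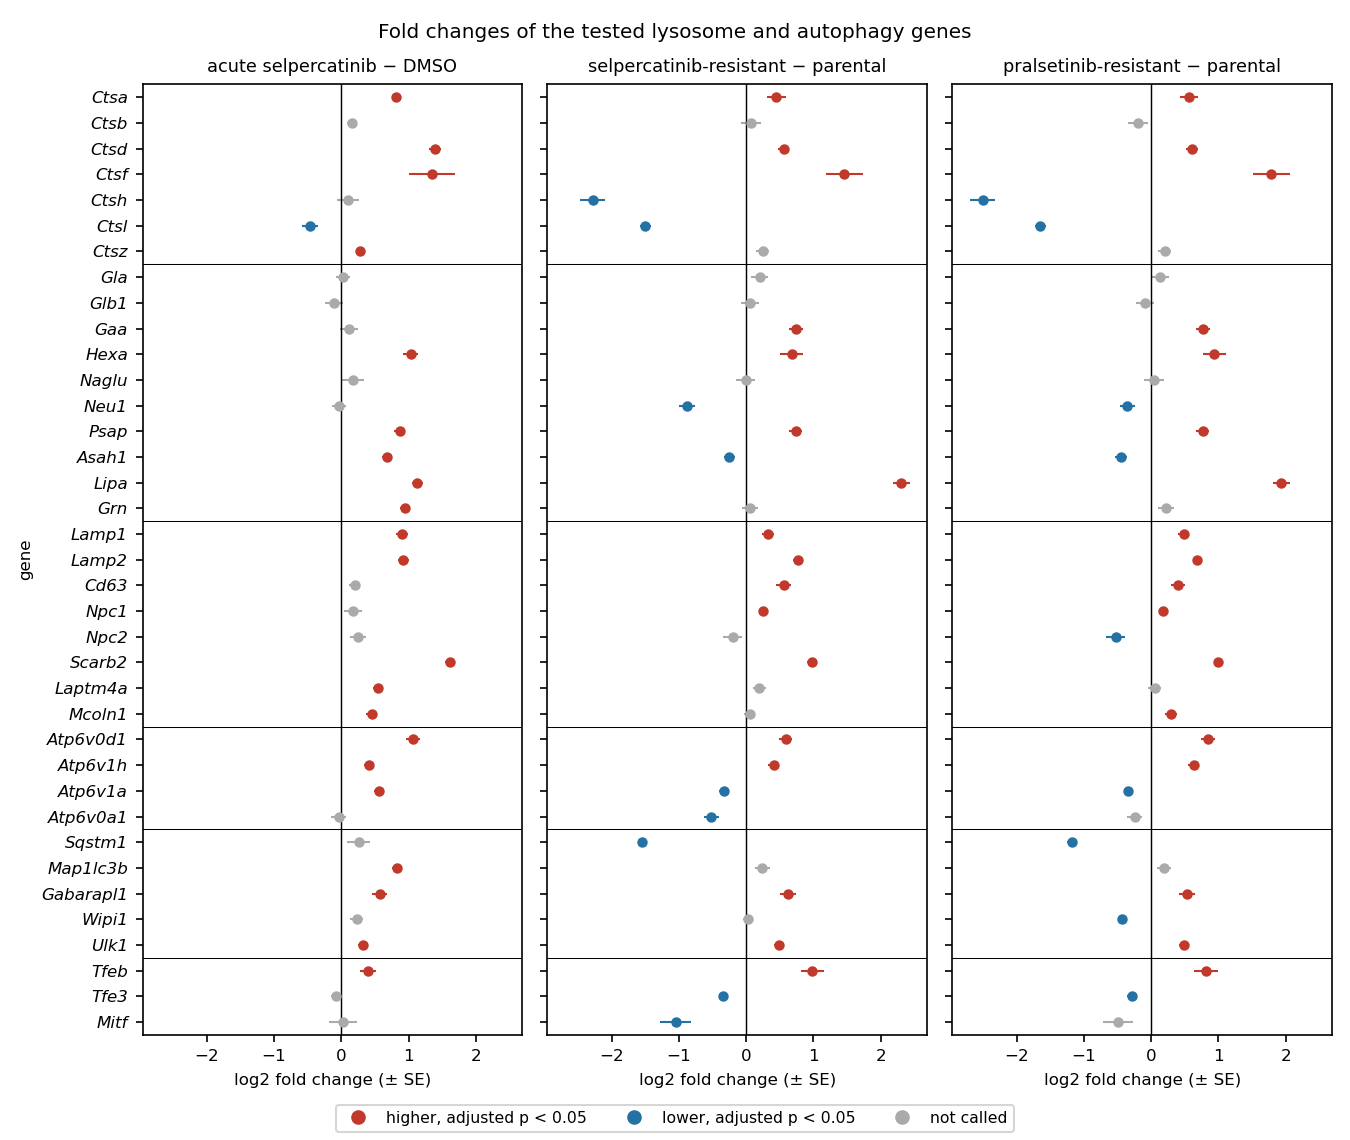
Points give the log2 fold change of each tested gene with its standard error, in 3 panels for acute selpercatinib against DMSO (4 libraries per arm), selpercatinib-resistant against parental and pralsetinib-resistant against parental (2 libraries per group, the parental ones shared). Red and blue mark genes called higher and lower, and grey those not called; 21 points are red in the first panel, 17 in the second and 18 in the third.

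Lysosomal transcripts also rose with time in untreated cultures. In DMSO, 18 of the 37 genes rose per day and none fell, against 18% higher and 15.9% lower of all genes; 26 of the 37 had an unadjusted p below 0.05. In selpercatinib, 8 rose per day and 1 fell (Ctsh), against 5.18% and 7.78% of all genes. With 4 time points per arm these calls depended on the early days: without day 1 or without day 2, none of the 37 was called in either arm by edgeR. In those fits 7 and 13 of the 37 had an unadjusted p below 0.05 in DMSO and 5 and 15 in selpercatinib, and over all genes 102 and 254 were called in DMSO and 0 and 202 in selpercatinib. DESeq2 on all days called 23 higher and 0 lower in DMSO, and 16 and 1 in selpercatinib. It also called more of all 13209 genes. These were 5405 in DMSO (2760 higher) and 2987 in selpercatinib (1369 higher), against 4468 and 1712 by edgeR. The labels' batch field names the day, so time in culture and batch cannot be told apart.

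Steepest in DMSO was Ctsf, 16.2 times higher on day 5 than on day 1, at 1.07 ± 0.15 log2 units per day (edgeR adjusted p = 0.00401). Hexa and Gaa followed, 3.65 and 3.63 times higher on day 5, at 0.50 ± 0.10 and 0.49 ± 0.08 per day, then Naglu at 0.41 ± 0.07 and Sqstm1 at 0.34 ± 0.05 (edgeR adjusted p = 0.0109, 0.00555, 0.00578 and 0.00379). In selpercatinib, Ctsf rose by 0.62 ± 0.14 per day, Hexa by 0.45 ± 0.10, Gaa by 0.31 ± 0.08, Ctsd by 0.24 ± 0.05 and Ctsl by 0.17 ± 0.03, while Ctsh fell by 0.24 per day. Ulk1, Ctsb and Atp6v1a were the remaining genes called higher per day in the drug.

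Whether the drug's effect itself changed over days was tested as a difference in slopes. None of the 37 genes passed (edgeR, day block), with 9 at an unadjusted p below 0.05, and over all genes 0.78% were called with a rising and 1.28% with a falling difference. With DESeq2, 1 of the 37 was called with a rising and 3 with a falling difference, and 910 of all genes were called, against 272 by edgeR. The nearest to the threshold was Sqstm1, at -0.25 ± 0.05 log2 units per day (edgeR adjusted p = 0.0589), then Atp6v0a1 and Ctsh at -0.15 ± 0.04 and -0.23 ± 0.06 (both 0.108). Ctsl had the opposite sign, 0.16 ± 0.05 (0.129). The counts depended on single days: without day 3, 1 gene was called with a rising and 6 with a falling difference, and without day 5, 3 with a falling one. Over all genes these 2 fits called 1512 and 1130, against 272 with all days.

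**Figure D4:**
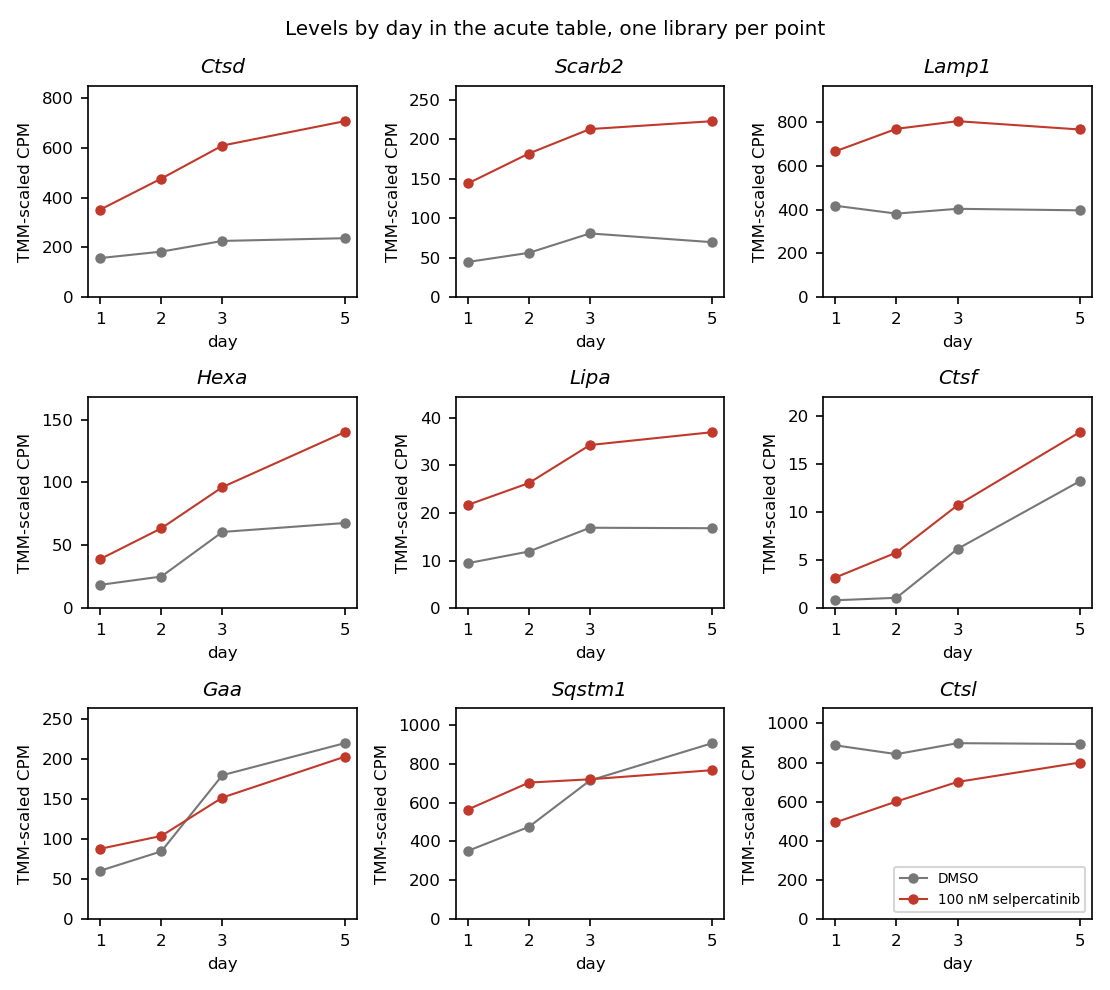
Each panel shows 1 gene, with the day on the horizontal axis and scaled CPM from 0 on the vertical axis; grey points are DMSO and red points 100 nM selpercatinib, 1 library each. Ctsd, Scarb2, Lamp1 and Lipa stay apart on every day, Gaa and Sqstm1 cross between day 1 and day 5, and Ctsl in the drug climbs from 494 to 800 CPM toward the DMSO level.

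In cells grown resistant, the genes split in both directions. Against parental cells, 17 of the 37 were higher and 9 lower in selpercatinib-resistant cells, and 18 higher and 9 lower in pralsetinib-resistant cells (edgeR quasi-likelihood test, Benjamini-Hochberg). Over all 14389 genes tested, 35.2% were higher and 34.4% lower in the former, and 35.8% and 34.6% in the latter. Both comparisons use the same 2 parental libraries, and since the labels' batch field reads parental or resistant, batch and group cannot be told apart here. The median log2 difference of the 37 genes was 0.24 and 0.20, against 0 and 0.006 over all genes. The pralsetinib median rested on which library was kept: it was 0.04 without the 200 nM library and 0.36 without the 400 nM library. In 18 genes all 4 resistant libraries stood above both parental libraries (39% of all genes) and in 10 all 4 stood below (38.7% of all genes). Scaling by library totals raised the median of all genes by 0.14 and 0.18 log2 units, and then 21 of the 37 were higher in each, with 8 and 7 lower.

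Cathepsins showed the widest spread, with 3 of 7 higher and 2 lower in both resistant groups. Ctsh had 48 and 48.1 CPM in parental libraries, 10.4 and 9.36 CPM in selpercatinib-resistant and 10.4 and 6.58 CPM in the 200 nM and 400 nM pralsetinib-resistant libraries. Its log2 differences were -2.28 ± 0.19 and -2.51 ± 0.19, the most negative of the set (edgeR adjusted p = 2.73e-05 and 1.7e-05). Ctsl read 980 and 1016 CPM in parental, 368 and 339 CPM in selpercatinib-resistant, and 339 and 299 CPM in pralsetinib-resistant libraries (-1.50 ± 0.08 and -1.65 ± 0.08, edgeR adjusted p = 2.93e-06 and 1.88e-06). All resistant libraries lay far below the parental pair for both genes. The Ctsl share of the 9 cathepsins summed per kilobase of exon was 32.2% and 32.6% in parental cells and 10.9% to 12.6% in the 4 resistant libraries. With the shortest transcripts it was 55.4% and 55.9% in parental cells and 24.4% to 27.8% in the resistant libraries. Which of the pair was larger in resistant libraries depended on the length. Ctsd held 24.8% to 28.3% per kilobase of exon, above Ctsl, and 20.4% to 23.4% with the shortest transcripts, below it.

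Ctsf read 3.49 and 2.96 CPM in parental, 9.57 and 8.11 CPM in selpercatinib-resistant, and 14.2 and 7.9 CPM in pralsetinib-resistant libraries (log2 differences 1.46 ± 0.27 and 1.78 ± 0.27; edgeR adjusted p = 0.00209 and 0.000704). Ctsd, at 177 and 186 CPM in parental cells, was at 255 to 299 CPM in the resistant libraries (0.56 ± 0.08 and 0.61 ± 0.08; edgeR adjusted p = 0.000669 and 0.000402). Ctsa rose by less (0.45 ± 0.14 and 0.56 ± 0.14), and its call in selpercatinib-resistant cells was lost when any 1 of the 4 libraries compared was left out (highest adjusted p 0.123). In pralsetinib-resistant cells the Ctsa call was lost without the second parental library (0.063). Ctsb and Ctsz were not called in either comparison. Ctsk was at 0.252 to 0.775 CPM and Ctss at 0 to 0.045 CPM over the 6 libraries.

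Of the other hydrolases, Gaa, Hexa, Psap and Lipa were higher and Neu1 and Asah1 lower in both resistant groups. Lipa read 23 CPM in both parental libraries, 121 and 107 CPM in selpercatinib-resistant and 99.2 and 76.8 CPM in pralsetinib-resistant libraries. Its log2 differences of 2.30 ± 0.13 and 1.93 ± 0.13 were the largest rises of the set (edgeR adjusted p = 3.56e-06 and 7.82e-06). Gaa, at 162 CPM in parental cells, was at 244 to 310 CPM in the resistant libraries (0.74 ± 0.11 and 0.77 ± 0.11; edgeR adjusted p = 0.000513 and 0.00039). Psap went from 500 and 508 CPM to 838 and 837 CPM, and to 949 and 767 CPM (0.73 ± 0.10 and 0.77 ± 0.10; edgeR adjusted p = 0.000332 and 0.000245). Hexa went from 28.4 and 28.8 CPM to 49.9 and 41.5 CPM, and to 65 and 44.6 CPM; its call in selpercatinib-resistant cells (0.67 ± 0.17, edgeR adjusted p = 0.00926) was lost without either parental library or without the first resistant one (highest 0.0654).

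Neu1 read 90.7 and 91.1 CPM in parental, 49.5 and 48.9 CPM in selpercatinib-resistant, and 80.8 and 61.7 CPM in pralsetinib-resistant libraries. All 4 resistant libraries were below the parental pair, those of selpercatinib by more (-0.88 ± 0.12, edgeR adjusted p = 0.000344). In pralsetinib-resistant cells (-0.35 ± 0.12, edgeR adjusted p = 0.0279) the call was lost without either parental or either selpercatinib-resistant library, under scaling by totals and when only the groups compared were fitted (highest 0.171). Asah1 went from 275 and 298 CPM to 252 and 230 CPM and to 222 and 198 CPM (-0.25 ± 0.08 and -0.45 ± 0.08; edgeR adjusted p = 0.0272 and 0.00187). In selpercatinib-resistant cells the Asah1 call was lost without the second library of either group and under scaling by totals (highest 0.246). Gla, Glb1, Naglu and Grn were not called in either group.

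Lysosomal membrane genes were mostly higher. Scarb2 read 82 and 83.8 CPM in parental, 168 and 157 CPM in selpercatinib-resistant and 163 and 167 CPM in pralsetinib-resistant libraries (log2 differences 0.97 ± 0.06 and 0.99 ± 0.06; edgeR adjusted p = 7.42e-06 and 6.55e-06). Lamp2 (0.76 ± 0.07 and 0.69 ± 0.07), Lamp1 (0.33 ± 0.08 and 0.49 ± 0.08), Cd63 (0.56 ± 0.11 and 0.40 ± 0.11) and Npc1 (0.25 ± 0.06 and 0.17 ± 0.06) were also called higher in both. Calls of Lamp1 and Npc1 in selpercatinib-resistant cells, and of Cd63 and Npc1 in pralsetinib-resistant cells, were lost when single libraries were left out (highest edgeR adjusted p over all settings 0.0745, 0.0873, 0.0933 and 0.226). Lamp1 lost it without either parental library or the first selpercatinib-resistant one. Npc1 lost it in selpercatinib-resistant cells without the first parental or either selpercatinib-resistant library, and in pralsetinib-resistant cells without any 1 of the parental or selpercatinib-resistant libraries, and Cd63 without either parental library. Mcoln1 was called higher (0.29 ± 0.08, edgeR adjusted p = 0.0159) and Npc2 lower (-0.53 ± 0.14, 0.0114) in pralsetinib-resistant cells; both calls were lost without the second parental library (0.137 and 0.0553). Laptm4a was not called in either.

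Proton pump subunits went both ways. Atp6v0d1 (0.59 ± 0.10 and 0.85 ± 0.10) and Atp6v1h (0.41 ± 0.08 and 0.63 ± 0.08) were higher in selpercatinib-resistant and pralsetinib-resistant cells, in that order. Atp6v1a was lower in both, from 106 and 112 CPM in parental libraries to 84.1 to 89.5 CPM in the resistant ones (-0.33 ± 0.07 and -0.34 ± 0.07). The adjusted p-values of these 6 differences ran from 0.000161 to 0.00281 (edgeR). Atp6v0a1 was lower in selpercatinib-resistant cells (-0.52 ± 0.11, edgeR adjusted p = 0.00363) and not called in pralsetinib-resistant ones (-0.25 ± 0.11, 0.0761).

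Sqstm1, per kilobase the most abundant transcript of the set in parental cells, fell in both resistant groups. It read 1202 and 1316 CPM in parental, 428 and 433 CPM in selpercatinib-resistant and 551 and 558 CPM in pralsetinib-resistant libraries. The 3 groups did not overlap, and the log2 differences from parental were -1.55 ± 0.07 and -1.18 ± 0.06 (edgeR adjusted p = 9.28e-07 and 3.14e-06). An overlapping gene on the opposite strand, Mrnip, shares 17.3% of its exon bases, and the strand setting of the counting is not given in the sources used here. Gabarapl1 (0.63 ± 0.12 and 0.54 ± 0.12) and Ulk1 (0.48 ± 0.07 and 0.49 ± 0.07) were higher in both. Map1lc3b was not called in either (0.24 ± 0.11 and 0.19 ± 0.11, edgeR adjusted p = 0.0892 and 0.154). Wipi1 was called lower in pralsetinib-resistant cells (-0.43 ± 0.07, edgeR adjusted p = 0.00132).

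The MiT/TFE factors diverged. Tfeb had 8.57 and 8.67 CPM in parental libraries, 17 and 17.1 CPM in selpercatinib-resistant libraries and 18.2 and 12.2 CPM in pralsetinib-resistant libraries (0.98 ± 0.18 and 0.82 ± 0.18, edgeR adjusted p = 0.00161 and 0.00402). Tfe3 was lower in both, from 118 CPM to 90.6 to 97.7 CPM (-0.34 ± 0.06 and -0.29 ± 0.06, edgeR adjusted p = 0.00172 and 0.00364); in pralsetinib-resistant cells that call was lost under scaling by totals (0.108). Mitf was near the limit of testing, with 2.14 and 1.91 CPM in parental, 1.11 and 0.852 CPM in selpercatinib-resistant and 1.34 and 1.54 CPM in pralsetinib-resistant libraries, and was called lower in the selpercatinib-resistant group (-1.05 ± 0.23, edgeR adjusted p = 0.0045).

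**Figure D5:**
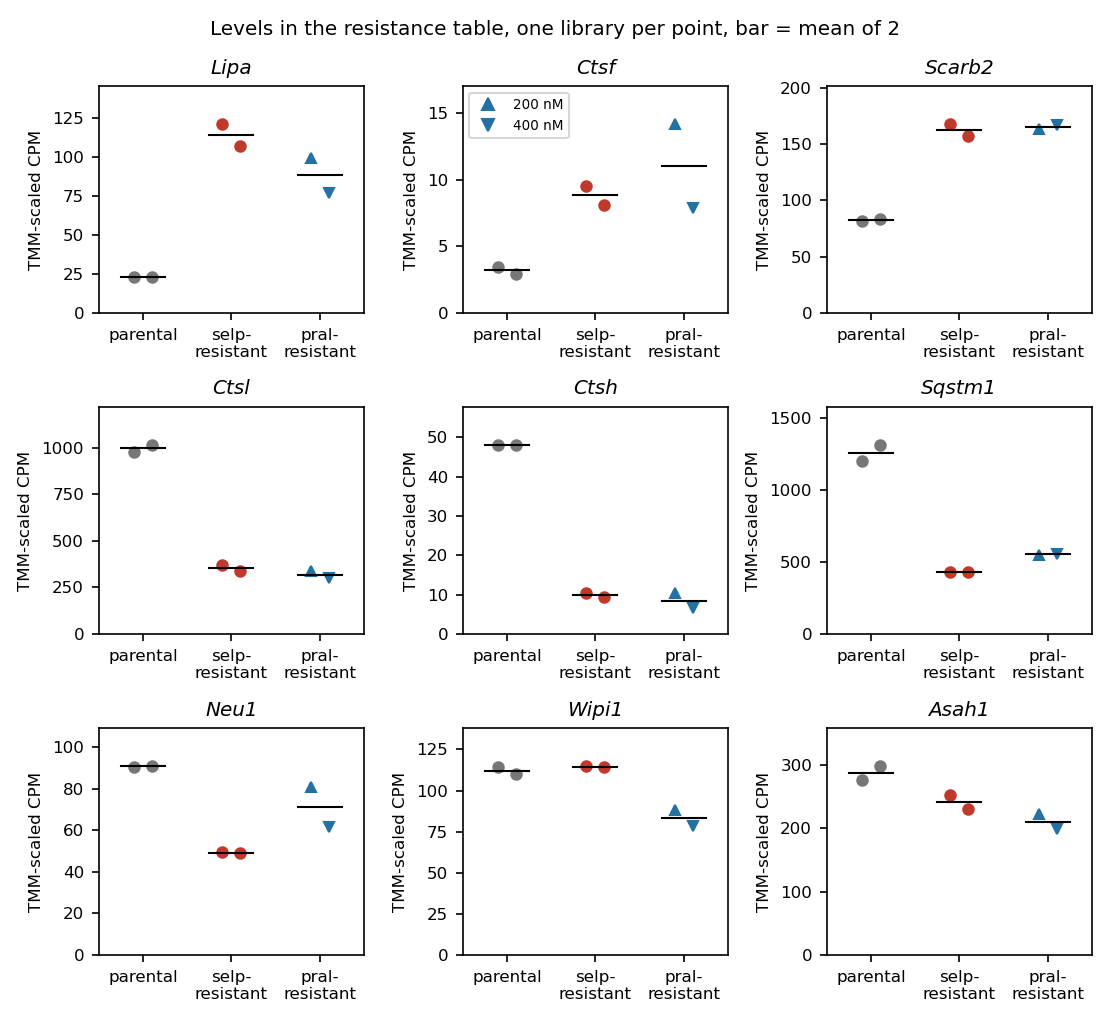
Each panel shows 1 gene in the resistance table, with scaled CPM from 0 on the vertical axis, 1 point per library and a bar at the mean of 2; triangles mark the 200 nM (pointing up) and 400 nM (pointing down) pralsetinib-resistant libraries. Lipa, Ctsf and Scarb2 lie above the parental points in all resistant libraries, Ctsl, Ctsh, Sqstm1 and Neu1 below, and Wipi1 is lower in the pralsetinib-resistant pair.

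The acute and resistance tables share no library, but both resistant comparisons share the parental pair, so calls that recur in both of them are not independent of each other. Ctsa, Ctsd, Ctsf, Hexa, Psap, Lipa, Lamp1, Lamp2, Scarb2, Atp6v0d1, Atp6v1h, Gabarapl1, Ulk1 and Tfeb were called higher in each comparison, and Ctsl lower. Asah1 and Atp6v1a were higher in acute selpercatinib and lower in both resistant groups. Ctsz, Grn, Laptm4a and Map1lc3b were called higher only in the acute comparison, and Gaa, Cd63 and Npc1 only in the resistant groups. Ctsh, Neu1, Sqstm1 and Tfe3 were called lower in both resistant groups and not acutely, and Ctsb, Gla, Glb1 and Naglu were called nowhere. Differences between the acute and resistance effects were not tested. How often genes outside the set were called in the same direction in each comparison was not counted. Whether such recurrence is particular to these genes was therefore not tested.

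Sizes differed as well as signs, as values side by side show. Scarb2 had log2 differences of 1.62 acutely and 0.97 and 0.99 in the resistant groups, and Ctsd 1.39 against 0.56 and 0.61. Lipa had 1.13 acutely and 2.30 and 1.93 in the resistant groups, and Ctsl -0.46 against -1.50 and -1.65. Parental DMSO libraries of the resistance table and DMSO libraries of the acute table were normalised separately.

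Compared with each other, the resistant groups differed in few genes, in this set as over all genes. In selpercatinib-resistant against pralsetinib-resistant cells, 1 of the 37 was higher (Wipi1) and 2 were lower (Neu1 and Sqstm1), against 6.46% and 4.13% of all genes (edgeR). Wipi1 read 115 and 114 CPM against 88.3 and 78.4 CPM (log2 difference 0.46 ± 0.07, edgeR adjusted p = 0.0122). Sqstm1 differed by -0.36 ± 0.06 and Neu1 by -0.53 ± 0.12 (edgeR adjusted p = 0.0165 and 0.0321). All 3 calls were lost without either selpercatinib-resistant library, and that of Neu1 also without either parental library and when only the groups compared were fitted. For the remaining 34 genes the test did not reach the threshold, which does not show that the groups were alike.

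The pralsetinib-resistant pair was itself uneven, and this bears on that comparison. The library labelled 200 nM was above the one labelled 400 nM in 33 of the 37 genes, against 52.4% of all genes, with a median ratio of 1.24 (range 0.87 to 1.8) against 1.01 over all genes. The first selpercatinib-resistant library was above the second in 27 of the 37, but with a median ratio of 1.03, and the first parental library above the second in 9, with a median ratio of 0.984. Ctsf was 1.8 times, Ctsh 1.58 times, Tfeb 1.49 times and Hexa 1.46 times higher in the 200 nM library, while Sqstm1 (0.987), Scarb2 (0.977), Atp6v1a (0.972) and Mitf (0.87) were not higher. In 13 genes the 200 nM library was above and the 400 nM library below both selpercatinib-resistant libraries, against 9.64% of all genes.

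Leaving out 1 of this pair therefore moved the comparison in opposite directions. Without the 200 nM library, 16 of the 37 were higher and 2 lower in selpercatinib-resistant cells, and without the 400 nM library, 1 was higher and 15 were lower. Over all genes these fits called 4443 of 14277 (2504 of them higher) and 3879 of 14261 (2137 higher), against 1523 with both libraries. Each leaves 1 pralsetinib-resistant library, which is then assumed to vary like the other groups, although this pair was the most uneven (chi-square per degree of freedom 40.5, against 11.8 and 6.45 in the selpercatinib-resistant and parental pairs). With 1 library at each labelled dose, a difference by dose and a difference between cultures cannot be told apart.

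Related genes outside the set were counted by list. The lists were chosen with earlier results of these data known, so the counts are no independent test. In acute selpercatinib, 23 of 31 other lysosomal hydrolases were higher and 1 lower, with a median log2 difference of 0.78, and 13 of 15 other proton pump subunits were higher and none lower, with a median of 0.58, against 26.6% higher and 26.9% lower of all genes. Smaller shares were called among other membrane proteins (9 higher and 1 lower of 17), sorting of enzymes to the lysosome (5 and 1 of 12), other autophagy genes (18 and 5 of 41), nutrient signalling to TFEB (10 and 2 of 20) and cathepsin inhibitors (4 and 1 of 7).

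Named by the same rule in each list, the hydrolases Ctse, an aspartic protease, and Tpp1, a tripeptidyl peptidase, had acute log2 differences of 1.65 ± 0.12 and 0.99 ± 0.07 (edgeR adjusted p = 0.000104 and 0.000111). Ctsc, the dipeptidyl peptidase that activates granule proteases, fell by 0.32 (0.0185). Among membrane proteins, Ctns, the cystine exporter, rose by 1.38 ± 0.17, from a mean of 9.1 ± 3.79 to 22.4 ± 3.57 CPM (SD, n = 4). Igf2r and Sort1, receptors that sort enzymes to lysosomes, rose by 1.00 ± 0.08 and 1.19 ± 0.10. Atp6v0e and Tcirg1, of the proton pump, rose by 1.11 ± 0.07 and 0.73 ± 0.07.

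In autophagy, Atg2a, a lipid transfer protein, Map1lc3a and Rb1cc1, a partner of Ulk1, rose by 0.86 ± 0.06, 0.98 ± 0.09 and 0.86 ± 0.09. Epg5, Tecpr1 and Atg9b fell by 1.29, 1.10 and 1.12 on the log2 scale (edgeR adjusted p = 0.000109, 0.000464 and 0.000596). Rragd, the Rag GTPase that helps control TFEB at the lysosome, rose from a mean of 6.05 ± 4.67 to 24.5 ± 17 CPM (log2 difference 2.11 ± 0.13, edgeR adjusted p = 5.92e-05), and Rptor, a subunit of mTORC1, fell by 0.35 (0.00492). Serpinb6b, a serpin with close paralogs between which reads may be split, rose by 2.66 ± 0.09, and the cystatins Cstb and Cst3, which inhibit cysteine cathepsins, by 0.64 ± 0.08 and 0.51 ± 0.08.

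In the resistant groups, where 35.2% and 35.8% of all genes were higher and 34.4% and 34.6% lower, calls in these lists went both ways. Other hydrolases had 16 higher and 5 lower of 31 in selpercatinib-resistant and 16 and 6 in pralsetinib-resistant cells, other membrane proteins 7 and 4, and 10 and 4, of 18, sorting genes 4 and 2, and 6 and 1, of 12, and pump subunits 9 and 5, and 11 and 1, of 17. Other autophagy genes had 14 higher and 15 lower, and 13 and 16, of 41, and nutrient signalling 7 and 8, and 9 and 7, of 21, both close to the shares of all genes. Cathepsin inhibitors had 4 and 2 of 6 in both.

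Sort1 rose most among sorting genes, from 20.5 ± 0.71 CPM in parental to 241 ± 8.74 CPM in selpercatinib-resistant and 267 ± 9.81 CPM in pralsetinib-resistant cells (SD, n = 2). Its log2 differences were 3.56 ± 0.07 and 3.70 ± 0.07 (edgeR adjusted p = 4.93e-08 and 4.62e-08). The hydrolases Arsb (1.40 ± 0.07 and 1.26 ± 0.07), Ids (1.37 ± 0.08 and 1.43 ± 0.08) and Ctso (1.67 ± 0.12 and 1.88 ± 0.12) were higher in both, and Galc, which degrades galactosylceramide, was lower in both (-1.10 ± 0.08 and -0.55 ± 0.08). Gpnmb, a transmembrane glycoprotein of lysosome-related organelles, was at 0.306 ± 0.036 CPM in parental and 16.8 ± 0.387 CPM in pralsetinib-resistant cells; it passed the filter only through the resistant libraries, so no test is given.

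Atg9b, which encodes a paralog of the lipid scramblase Atg9a, fell from 186 ± 32 CPM in parental to 4.05 ± 0.619 CPM in selpercatinib-resistant and 3.28 ± 0.315 CPM in pralsetinib-resistant cells (log2 differences -5.52 ± 0.17 and -5.83 ± 0.17; edgeR adjusted p = 2.4e-07 and 1.94e-07). Tecpr1, a tether between autophagosomes and lysosomes, and Epg5, another tether, were lower in both, by log2 differences of -2.68 ± 0.06 and -2.53 ± 0.06 for Tecpr1 and -1.54 ± 0.06 and -1.64 ± 0.06 for Epg5. Ctla2a, an inhibitor of cathepsin L-like proteases, fell from 37.3 ± 2.72 CPM to 0.843 ± 0.0592 and 1.32 ± 0.0929 CPM (-5.47 ± 0.13 and -4.82 ± 0.13; edgeR adjusted p = 1.04e-07 and 1.34e-07). Most epithelial and fibroblast markers moved with the same groups, as given above, and their part in these differences was not tested.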

How the data were processed

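Per the submitters' processing notes, reads were handled with FastQC, STAR and edgeR against mm10; their versions, the counter, the annotation and the strand setting: not given in the sources used here. The deposited files hold whole-number counts per gene, although their names speak of CPM; no normalization by the authors was found in the values. Rows are named by symbol; 55314 of 55415 matched the reference gene names without regard to case, and the others held 0.186% to 0.262% of counts. Lengths came from GENCODE M21, promoters from RefSeq.

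Counts were scaled with TMM in edgeR 4.0.16 (R 4.3.3). Genes with a CPM of at least 1 in 4 libraries (acute) or 2 (resistance) entered edgeR's quasi-likelihood test, with Benjamini-Hochberg adjustment over all genes and a threshold of 0.05; a gene could pass through 1 group alone. Standard errors are the log2 fold change divided by the square root of F. The acute fit had the day as a block, since the labels' batch field names it and same-day libraries deviated together (r = 0.617, 0.58, 0.467 and 0.66). The resistance fit used all 6 libraries. Scripts were tested on simulated data. Alternatives used DESeq2 1.42.0, limma 3.58.1, other scalings, filters and left-out libraries; transcript lengths were added after the data were seen. Genes and lists were chosen with earlier results of these data known. Related genes are named by a rule: up to 3 per list, direction and comparison, by lowest p, with a mean of at least 5 CPM and no overlap, or the same direction on each day; the text gives some of them.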

Additional observations from a re-analysis of the deposited data

Results flagged for a closer look

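Among 78 groups of 4 libraries checked for a single distant value, of which chance flags about 1 in 20, 2 stood out. Atp6v0a1 in acute selpercatinib read 116, 118 and 116 CPM on days 1 to 3 and 96.9 CPM on day 5, a gap of 0.869 of the whole range. Ctss in DMSO read 0 counts in 3 libraries and 0.0129 CPM, a single count, in the other, a gap of 1 by construction.

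Between the resistant groups, 3 genes differed by direct test (selpercatinib-resistant minus pralsetinib-resistant, log2). Wipi1 differed by 0.46, Neu1 by -0.53 and Sqstm1 by -0.36, in each case with both libraries of one group above both of the other. Such separation was not particular to these 3 genes. Of the 37 tested, both pralsetinib-resistant libraries were above both selpercatinib-resistant ones in 8 and below them in 8. The share of all genes separated in this way was not counted. As given above, all 3 calls were lost when single libraries were left out.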

How the results depend on the processing

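No called gene of the set changed sign under any of the 12 acute or 15 resistance settings. Calls held in 250 of 264 recomputed values in the acute comparison, in 373 of 389 for selpercatinib-resistant and 360 of 378 for pralsetinib-resistant against parental cells. Time trends and the contrast between resistant groups depended on the setting; the cause was not tested, beyond fewer libraries in a fit. Below, counts are genes of the set, with all genes called in brackets. Without a filter, the slope difference had 1 gene higher and 3 lower (1167). The trend in selpercatinib then had 16 higher and 1 lower (3469), and the resistant contrast 4 higher and 4 lower (2745). With DESeq2 these were 1 higher and 3 lower (910), 16 higher and 1 lower (2987), and 2 higher and 2 lower (2371). With library totals the slope had 1 lower, and without the block the count over all genes was 164. Fitting only the 2 resistant groups left 1 higher and 1 lower (568). Leaving out 1 day or library gave these ranges: acute lower 0 to 1; slope higher 0 to 1, lower 0 to 6 (25 to 1512); DMSO trend higher 0 to 27 (102 to 5945); selpercatinib trend higher 0 to 18, lower 0 to 1 (0 to 4029); resistant contrast higher 0 to 16, lower 0 to 15 (8 to 4443). Numbers of parental and selpercatinib-resistant libraries did not pair them (r = -0.0899); with the replicate block 21 genes were higher and 10 lower, and 11027 genes were called, against 11170 in those 2 groups without it. In the acute table, the fit without the block called 5070 genes, against 7072 with it. Low counts limit what can be said of Ctsk, Ctss and Mitf.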
